A study of Mus musculus with 36 samples.

Results

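The 7 genes described here encode 6 enzymes of cholesterol synthesis (Hmgcs1, Mvd, Idi1, Fdps, Sqle and Lss) and Insig1, a protein of the endoplasmic reticulum that restrains the same pathway. They were taken by name, by matching each symbol to its Ensembl identifier, and make up 7 of the 78239 genes in the deposited counts. All 7 were found and all 7 passed the filter on low counts in heart, kidney and liver. None of them takes up cholesterol, so they are called synthesis genes here. RNA came from male wild-type C57BL/6NCrl mice, an inbred substrain, aged 8, 10 or 12 weeks, with 4 libraries of each tissue at each age and 36 in all. No group carried a treatment or an engineered allele. Each library held between 21031599 and 33637390 read pairs counted on genes. Age and the day of collection cannot be told apart, and bulk RNA does not separate fewer cells of a type from less RNA per cell.

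Cells make cholesterol from acetyl-CoA. HMG-CoA synthase (Hmgcs1) joins acetyl units early in the mevalonate pathway, mevalonate diphosphate decarboxylase (Mvd) and isopentenyl-diphosphate isomerase (Idi1) make the isoprene units, and farnesyl diphosphate synthase (Fdps) joins these units. Squalene epoxidase (Sqle) and lanosterol synthase (Lss) then carry squalene to the first sterol. When sterols are scarce, the factor SREBP-2 moves to the nucleus and switches these genes on, while Insig1 holds its precursor back when sterols are plentiful. The liver is a main site of this synthesis, and in rodents hepatic synthesis is known to vary with feeding and the time of day.

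On GRCm39, Hmgcs1 lies at chr13:120151915-120170470 (plus strand), Mvd at chr8:123160336-123170324 (minus), Idi1 at chr13:8935537-8942487 (plus), Fdps at chr3:89000888-89019213 (minus), Sqle at chr15:59186869-59203043 (plus), Lss at chr10:76367298-76392976 (plus) and Insig1 at chr5:28276315-28283668 (plus). A read pair was counted only where it overlapped a single gene, and genes on the opposite strand overlap exons of Hmgcs1 (the long non-coding RNA Gm48342) and of Mvd (Gm51557). Adding the counts of both strands counts such pairs for the genes on both strands. The median count per library was then 1.38 times the count used here for Hmgcs1 in liver, 1.56 times in kidney and 1.41 times in heart. For Mvd these ratios were 1.73, 1.80 and 1.80. Pairs fell about equally on both strands (49.8% to 50.2% of counts on the first), so these pairs cannot be assigned to either gene. The levels of Hmgcs1 and Mvd may thus be understated by up to these ratios, which differ between tissues. The ratio was at most 1.15 in the median for the other 5 genes. Pairs with several equal matches were not counted either. Stretches of up to 2494 bases, with up to 99.3% identity to the Idi1 transcript, lie elsewhere in the genome. So does a stretch of 1877 bases with 97.9% identity to Insig1. Counts of both genes are thus uncertain to that extent. Shorter stretches lie elsewhere for Hmgcs1 (396 bases, 99.5% identity, 9.39% of the transcript) and Sqle (up to 205 bases, up to 95.6%, 4.53%), with the same limit.

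The tissues were checked against markers of their main cell type, summed in CPM (read pairs scaled to a common library total). Hepatocyte markers summed to 87860 to 131184 in liver, cardiomyocyte markers to 53894 to 69892 in heart, and kidney tubule markers to 31144 to 38590 in kidney. Albumin (Alb), the defining hepatocyte transcript, reached 10.3 and 15.2 CPM in the 10-week heart libraries of replicates 2 and 4 and at most 2.60 CPM in the other 10 heart libraries. The higher value is 0.0210% of the liver level. At that share, liver RNA would carry at most 1.71% of the median heart level of any of the 7 genes, the highest share being that of Sqle. The same bound in kidney was 0.220%, for Fdps.

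Levels below are CPM after TMM scaling over all 36 libraries, and tissues were compared with edgeR as the mean over the 3 ages. All 7 genes were higher in liver than in heart, and 5 of the 7 were higher in liver than in kidney. Fdps had the largest contrast of liver with kidney. In liver it ranged from 259 to 754 CPM with a median of 509 over 12 libraries. In kidney the range was 11.9 to 19.2 with a median of 15.7, and in heart 11.2 to 16.7 with a median of 13.5. No liver library overlapped the other tissues, whereas kidney and heart overlapped. The log2 difference was 5.04 ± 0.14 (SE) between liver and kidney, a 32.9-fold difference (edgeR quasi-likelihood test, adjusted p = 2.78e-26), and 0.22 ± 0.13 between kidney and heart (adjusted p = 0.105, 95% interval -0.04 to 0.49). Fdps was the single gene of the 7 that did not pass between kidney and heart.

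Sqle, often described as a control point of the pathway, showed the steepest fall from liver to heart. It ranged from 118 to 238 CPM in liver (median 177), 48.1 to 87.2 in kidney (median 58.5) and 1.25 to 2.45 in heart (median 1.88). The 3 tissues did not overlap. Liver exceeded heart by 6.56 ± 0.12 on the log2 scale, or 94.1-fold (edgeR, adjusted p = 3.00e-32), and kidney exceeded heart by 5.03 ± 0.12, or 32.8-fold. The heart values rest on 26 to 71 read pairs per library.

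Idi1, Lss and Insig1 also separated the 3 tissues without overlap. Idi1 had medians of 128 CPM in liver, 35.6 in kidney and 2.86 in heart. Lss had medians of 70.6, 17.98 and 2.18. For Insig1 the medians were 418, 35.3 and 21.6, so that kidney and heart lay much closer than for the enzymes Idi1 and Lss. The log2 difference between kidney and heart was 0.76 ± 0.11 for Insig1 (1.69-fold), against 3.63 ± 0.13 for Idi1 and 2.95 ± 0.13 for Lss. Each of these passed (edgeR, largest adjusted p = 2.89e-07).

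Hmgcs1 and Mvd ran against the other 5 genes. Averaged over the ages, both were higher in kidney than in liver. Hmgcs1 ranged from 276 to 372 CPM in kidney (median 311) and from 109 to 506 in liver (median 233), and liver was lower by -0.38 ± 0.13 on the log2 scale (edgeR, adjusted p = 0.0102). Mvd ranged from 14.2 to 21.3 CPM in kidney (median 18.2) and from 6.53 to 23.0 in liver (median 13.2), with a log2 difference of -0.51 ± 0.14 (adjusted p = 0.00097). In both genes the tissues overlapped. The median log2 difference of all genes between liver and kidney was -0.16 on this scaling. Without scaling factors it was -0.93, and Hmgcs1 and Mvd were then at -1.17 and -1.30. Their direction was the same under RLE factors, without factors and with the counts of both strands added. At 8 weeks the Hmgcs1 liver libraries (109 to 174 CPM) all lay below the kidney libraries (276 to 319), and at 10 and 12 weeks the ranges of the tissues overlapped. Its means in liver and kidney were 146 ± 30.2 and 296 ± 18.4 CPM at 8 weeks (SD, n = 4), 319 ± 143 and 307 ± 24.6 at 10 weeks, and 299 ± 127 and 337 ± 36.2 at 12 weeks, so that the mean was not lower in liver at 10 weeks.

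In liver against heart, 7 of 7 genes passed as higher and 0 as lower, where 42.2% and 42% of the 19716 genes tested did. In liver against kidney 5 passed as higher and 2 as lower, beside 37% and 46% of all genes. In kidney against heart 6 passed as higher and 0 as lower, beside 47.1% and 39%. Separation without overlap of 12 and 12 libraries held for 7, 5 and 6 genes in the higher direction, beside 25.8%, 22.3% and 30.9% of all genes. The median log2 difference of the 7 genes was 5.03, 1.91 and 2.95 in these contrasts, and the range for liver against heart was 2.11 (Mvd) to 6.56 (Sqle).

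**Figure D1:**
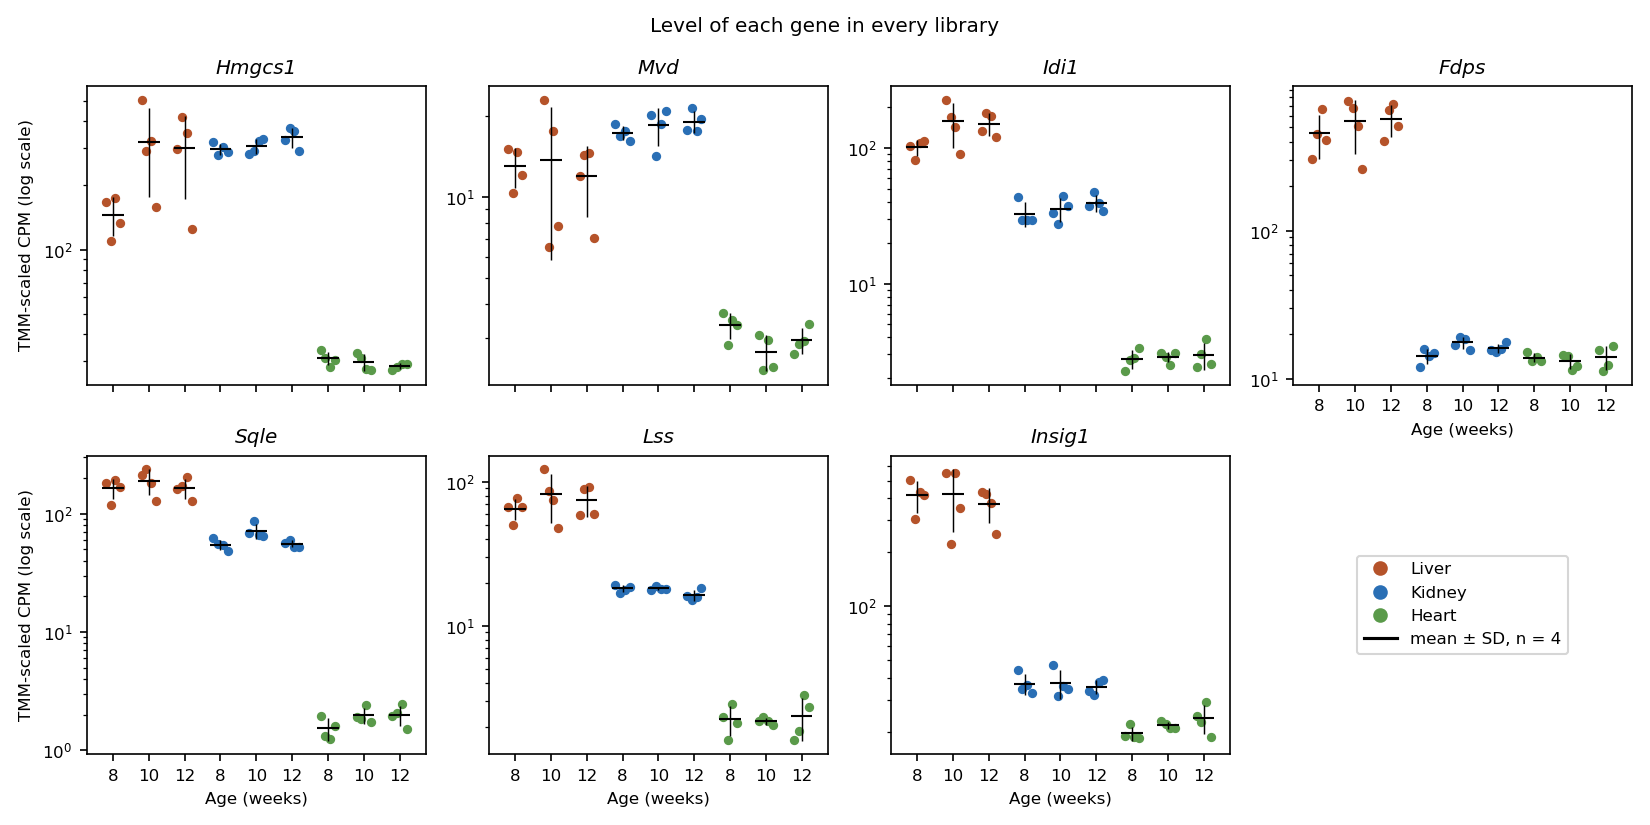
Level of each of the 7 genes in every library, as TMM-scaled CPM on a log axis, for 3 ages in liver, kidney and heart (points are libraries, bars are the mean and SD of 4). For Sqle, Idi1, Lss and Insig1 the tissues form 3 separate bands, whereas Fdps overlaps between kidney and heart, and Hmgcs1 and Mvd overlap between liver and kidney.

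**Figure D2:**
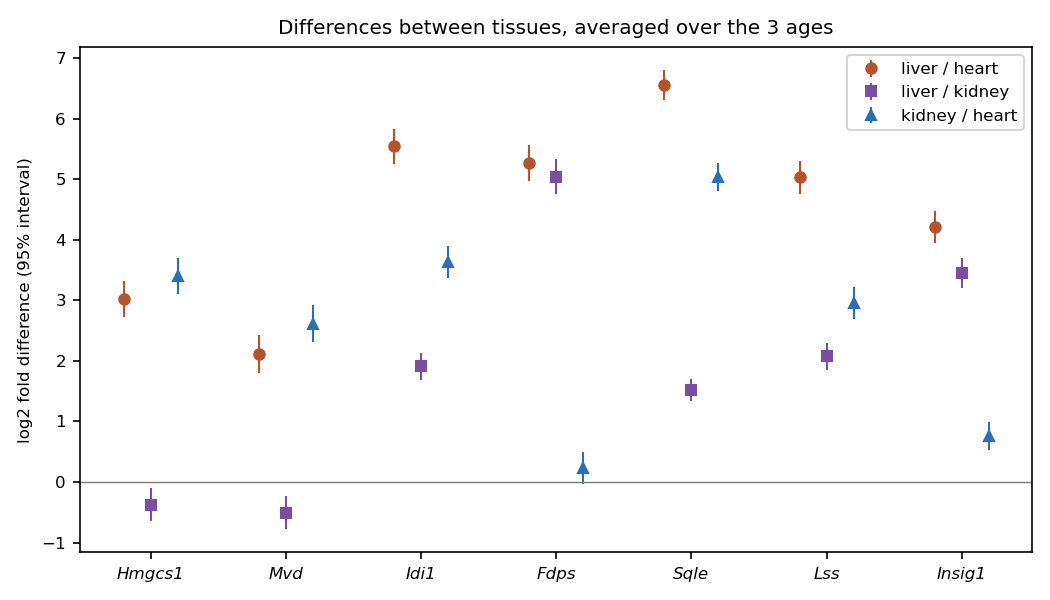
Log2 difference between tissues, averaged over the 3 ages, with its 95% interval from edgeR, for each gene. Hmgcs1 and Mvd lie below 0 for liver against kidney, and Fdps lies near 0 for kidney against heart.

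Levels were divided by the length of all exons to set genes side by side, with those of Hmgcs1 and Mvd possibly understated as described for their overlaps. In liver, Fdps led with 108 ± 33.9 CPM per kb (SD, n = 12), followed by Insig1 (82.2 ± 21.7), Hmgcs1 (48.3 ± 24.6), Idi1 (38.7 ± 12.2), Sqle (19.5 ± 4.06), Lss (6.56 ± 1.86) and Mvd (4.73 ± 1.73). Neighbours in this order lie within the sum of their SDs except Idi1 and Sqle, and Sqle and Lss. In kidney, Hmgcs1 stood alone at 59.4 ± 5.81 CPM per kb and Idi1 came next at 10.1 ± 1.86, and Fdps, first in liver, was sixth at 3.26 ± 0.401. In heart, Hmgcs1 (5.62 ± 0.409) and Insig1 (4.45 ± 0.637) led, while Sqle (0.207 ± 0.0428) and Lss (0.200 ± 0.0444) were lowest and did not differ beyond their spread. The order in liver and heart was the same with the length of the longest transcript. In kidney that length placed Sqle (13.2 ± 2.26) ahead of Idi1 (11.9 ± 2.18). With the counts of both strands added, an alternative chosen after seeing the data, Mvd followed Hmgcs1 in kidney (12.1 ± 1.21, with Idi1 at 10.4 ± 1.90). In liver Mvd (8.11 ± 2.85) then lay above Lss (7.57 ± 2.10), and in heart Lss (0.230 ± 0.0387) above Sqle. The places of Mvd, Idi1, Insig1, Lss and Sqle in these orders thus depend on the counting or the length used.

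The other genes of the pathway were read from a list of 53. Of these, 20 were assigned to the mevalonate and sterol branches and are called the enzymes of the list here. Enzymes assigned elsewhere, such as Cyp7a1 and Nceh1, are not among the 20. Between liver and heart 41 of the 53 were higher in liver and 9 lower, beside 42.2% and 42% of all genes, with a median log2 difference of 2.46 beside 0.00 for all genes (edgeR, adjusted p under 0.05). Of the 12 enzymes after farnesyl diphosphate, 11 were higher in liver than in heart and 11 higher than in kidney. Tm7sf2, a sterol reductase, exceeded heart by 6.65 ± 0.09 and kidney by 4.65 ± 0.08 (log2). Soat2, which esterifies cholesterol, had medians of 41.1 CPM in liver, 0.219 in kidney and 0.0821 in heart. Abcg5 and Abcg8, which together form a sterol exporter, had medians of 96.3 and 137 CPM in liver and at most 0.176 in any other library. Cyp7a1, the rate-limiting enzyme of bile acid synthesis, ranged from 65.2 to 1280 CPM in liver, was at 0 in every kidney library and reached at most 0.119 in heart.

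The genes that were lower in liver included the lipoprotein receptor Vldlr, with a median of 2.80 CPM in liver, 101 in kidney and 478 in heart. The esterase Nceh1 was lower by -2.76 ± 0.10 against heart and -2.92 ± 0.10 against kidney. The other lowest genes against heart were Nfe2l1 (-2.16 ± 0.05), Pdss1 (-1.97 ± 0.09) and Ggps1 (-0.99 ± 0.04), the latter pair being prenyl synthases that branch off after farnesyl diphosphate. Against kidney they were Soat1 (-2.12 ± 0.09), Pdss1 (-1.998 ± 0.09) and Mylip (-1.57 ± 0.13), and the receptor Lrp1 was higher in liver by 4.95 ± 0.14. Between liver and kidney 35 genes of the list were higher in liver and 12 lower, beside 37% and 46% of all genes, with a median of 1.66 beside -0.16. Between kidney and heart 31 were higher in kidney and 13 lower, beside 47.1% and 39%, with a median of 0.66 beside 0.15. Those highest in kidney included Acat2 (4.21 ± 0.10), Cyp51 (4.11 ± 0.09) and Nsdhl (3.15 ± 0.07), and those lowest Vldlr (-2.27 ± 0.11), Nfe2l1 (-1.77 ± 0.05), Lrp1 (-1.76 ± 0.12), Scarb1 (-1.47 ± 0.06) and Fdft1 (-1.22 ± 0.10).

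Ages were compared within each tissue. None of the 7 genes passed the adjusted p in any of the 9 contrasts by edgeR's quasi-likelihood test, nor by limma-voom. Unadjusted p under 0.05 was reached in 11 of the 63 combinations of gene and contrast. These were 2 genes higher in liver at 10 against 8 weeks (7.04% of all genes) and 2 at 12 against 8 weeks (7.37%), and in kidney 2 higher at 10 against 8 weeks (8.96%), 2 lower at 12 against 10 weeks (7.74%), and 1 higher (6.82%) and 1 lower (4.84%) at 12 against 8 weeks. The last was 1 higher in heart at 12 against 8 weeks (12.1%). None reached this level in liver at 12 against 10 weeks, or in heart at 10 against 8 and 12 against 10 weeks. In either direction, 11.7% to 23.4% of all genes reached it in each of the 9 contrasts. The count of 11 of 63 lies within that background. DESeq2 passed Hmgcs1 in liver and Sqle and Fdps in kidney at 10 against 8 weeks, and Sqle in kidney at 12 against 10 weeks. By DESeq2, 1.29% of all genes passed as higher in that liver contrast and 2.33% in that kidney contrast, and 1.75% as lower in kidney at 12 against 10 weeks, more than by edgeR. Across all genes in liver, 0.177% passed as higher and 0.0613% as lower at 12 against 8 weeks, 0.0136% and 0.00682% at 10 against 8 weeks, and 0.0204% and 0.0341% at 12 against 10 weeks. In kidney these shares were 0.0397% and 0.017%, 0.646% and 0.283%, and 0.136% and 0.346%. In heart they were 2.36% and 2.21%, 0.76% and 0.304%, and 0.0132% and 0.0264%.

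The widest age differences were those of Hmgcs1 in liver. Its 8-week libraries stood at 167, 109, 174 and 133 CPM, its 10-week libraries at 506, 291, 322 and 158, and its 12-week libraries at 297, 420, 354 and 125. At both older ages 3 of 4 libraries exceeded all 8-week libraries, and replicate 4 lay within the 8-week range. The log2 fold change was 1.12 ± 0.36 at 10 against 8 weeks (2.18-fold, edgeR adjusted p = 0.199) and 1.02 ± 0.36 at 12 against 8 weeks (2.03-fold, adjusted p = 0.219). The 95% interval of the second was 0.25 to 1.79.

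Idi1 had the next widest liver differences. Its libraries stood at 103, 81.4, 109 and 112.99 CPM at 8 weeks, at 228, 171, 143 and 90.6 at 10 weeks, and at 134, 180, 172 and 121 at 12 weeks. The 12-week libraries all exceeded the 8-week libraries, which 4.4% of genes did in liver, and at 10 weeks replicate 4 fell among the 8-week values. The log2 fold changes were 0.63 ± 0.23 at 10 weeks (edgeR, adjusted p = 0.235) and 0.57 ± 0.23 at 12 weeks (adjusted p = 0.269).

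The remaining genes gave smaller liver values. At 12 against 8 weeks Fdps was at 0.31 ± 0.30, Lss at 0.19 ± 0.25, Sqle at -0.0045 ± 0.20, Mvd at -0.13 ± 0.35 and Insig1 at -0.16 ± 0.26 on the log2 scale. The median of the 7 was 0.19, beside 0.00 for all genes tested. At 10 against 8 weeks all 7 estimates were above 0, from 0.01 (Insig1) to 1.12 (Hmgcs1), with a median of 0.27. At 12 against 10 weeks 6 of 7 were below 0, with a median of -0.14 and a smallest adjusted p of 0.689. Markers of immune cells summed to 86.0 to 190 CPM in the 8-week livers, 221 to 309 at 10 weeks and 127 to 148 at 12 weeks, and all 9 tested had estimates above 0 at 10 against 8 weeks, with none passing and 7 at an unadjusted p under 0.05. All 10 markers of stellate cells, fibroblasts and endothelium had estimates below 0 at 12 against 8 weeks, with a median of -0.48, none passing and 5 at an unadjusted p under 0.05. At 10 against 8 weeks 14.3% of all genes reached that level, and 15.1% at 12 against 8 weeks. Hepatocyte markers summed to 108239 to 131184 CPM in the 8-week livers, to 87860 to 107217 at 10 weeks, below all 8-week libraries, and to 100669 to 123738 at 12 weeks. Of these 10 markers 5 had estimates above 0 and 5 below at 10 against 8 weeks, with none passing. The part of these cell types in the liver values was not tested. The intervals for Fdps (-0.34 to 0.97), Lss (-0.34 to 0.72) and Mvd (-0.89 to 0.63) at 12 against 8 weeks were wide beside the estimates.

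In kidney the gene with the smallest p was Sqle. Its libraries stood at 61.7, 55.3, 54.0 and 48.1 CPM at 8 weeks, at 68.3, 87.2, 66.5 and 64.2 at 10 weeks, and at 56.7, 60.4, 52.7 and 52.5 at 12 weeks. The 10-week libraries lay above all others. The log2 fold change was 0.41 ± 0.10 at 10 against 8 weeks (1.33-fold, edgeR adjusted p = 0.0606) and -0.38 ± 0.10 at 12 against 10 weeks (adjusted p = 0.0854). Such separation was seen in 3.84% of all genes for the first contrast and 3.51% for the second. Between 12 and 8 weeks the value was 0.03 ± 0.10.

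Fdps gave the next smallest p in kidney. It stood at 11.9, 15.9, 14.2 and 14.9 CPM at 8 weeks, 16.8, 19.2, 18.5 and 15.7 at 10 weeks and 15.5, 15.2, 15.8 and 17.7 at 12 weeks. The 8-week and 10-week libraries overlapped by a narrow margin, with a log2 fold change of 0.32 ± 0.09 (edgeR, adjusted p = 0.0927). It was at -0.15 ± 0.09 at 12 against 10 weeks (adjusted p = 0.447) and 0.18 ± 0.09 at 12 against 8 weeks (adjusted p = 0.465). Hmgcs1 was at 0.19 ± 0.08 and Lss at -0.15 ± 0.07 at 12 against 8 weeks, both at unadjusted p under 0.05 and with adjusted p of 0.378 and 0.411. The median over the 7 genes in kidney was 0.12 at 10 against 8 weeks, -0.08 at 12 against 10 weeks and 0.15 at 12 against 8 weeks, beside 0.00 for all genes in each.

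In heart, Insig1 gave the single unadjusted p under 0.05. Its libraries stood at 18.9, 22.1, 18.8 and 18.4 CPM at 8 weeks, 22.9, 22.0, 21.1 and 20.9 at 10 weeks and 24.5, 22.6, 29.5 and 18.8 at 12 weeks. The ages overlapped, and the log2 fold change at 12 against 8 weeks was 0.28 ± 0.11 (edgeR adjusted p = 0.144). With each of the 12 heart libraries left out in turn, it was 0.15 to 0.38 (edgeR adjusted p = 0.0229 to 0.455). It passed in 1 of these fits, that without replicate 4 of the 12-week hearts. Hmgcs1, the most abundant member in heart per kb, was at -0.12 ± 0.08, with 33.8, 31.0, 28.2 and 30.5 CPM at 8 weeks and 27.3, 28.2, 29.1 and 29.1 at 12 weeks. Sqle was at 0.38 ± 0.21 and Mvd at -0.19 ± 0.16. The heart median of the 7 was 0.10 at 12 against 8 weeks, beside 0.00 for all genes.

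**Figure D3:**
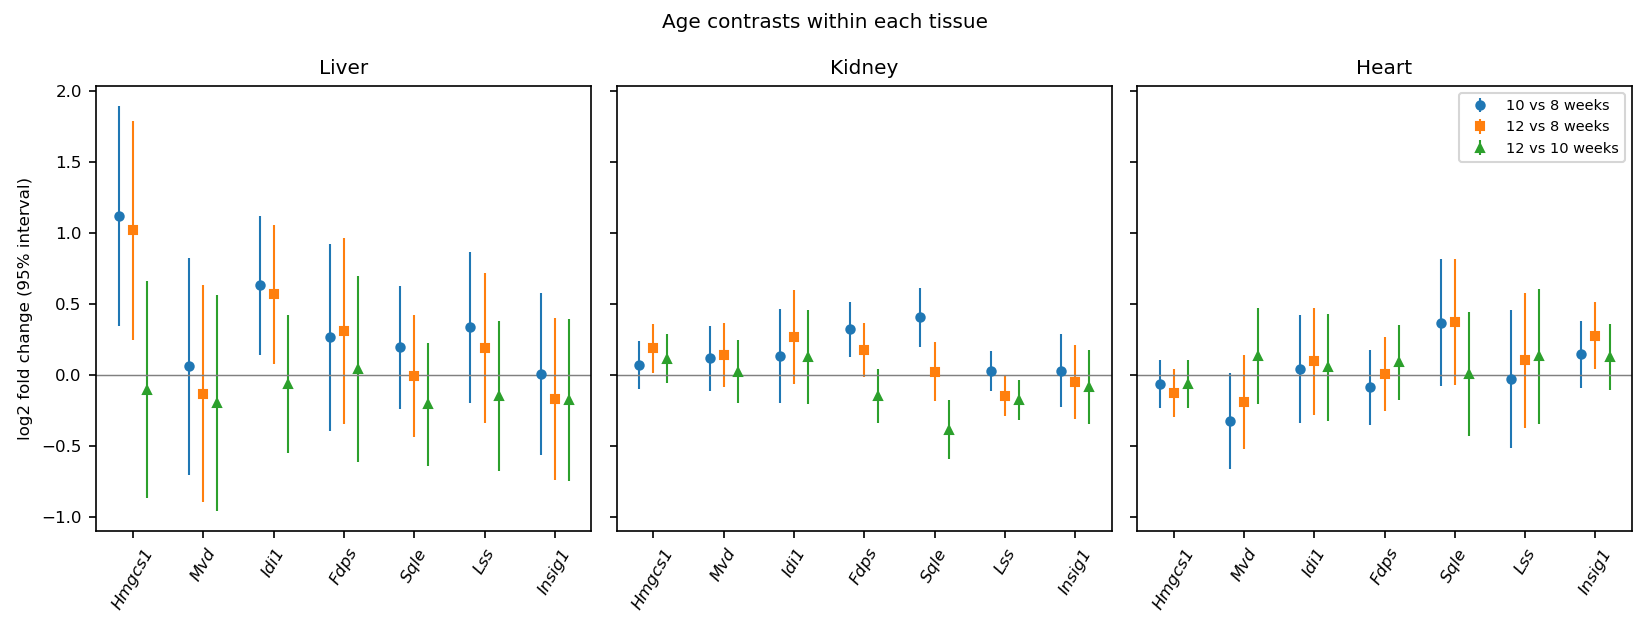
Log2 fold change between ages within liver, kidney and heart, with its 95% interval from edgeR, for each gene and each of 3 contrasts. Intervals are wide in liver, where the estimate of Hmgcs1 is 1.02 at 12 against 8 weeks, and narrow in kidney, where Sqle lies above 0 at 10 against 8 weeks and below 0 at 12 against 10 weeks.

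An interaction term in the model of all 36 libraries compared the age changes of the tissues. This model gives a gene the same spread in all tissues, whereas the coefficient of variation of Hmgcs1 was 50.8% in liver and 7.27% in heart. The liver change of Hmgcs1 from 8 to 12 weeks alone had an SE of 0.36 in the liver fit (edgeR adjusted p = 0.219). The SE and p-values of its interactions with liver below may thus be too small. For Hmgcs1 the change from 8 to 12 weeks was higher in liver than in heart by 1.15 ± 0.34 on the log2 scale (edgeR adjusted p = 0.0439). It was 1 of 7 genes to pass, where 1.81% of all genes passed in that direction and 2.35% in the other. The same difference was 1.19 ± 0.34 for 8 to 10 weeks (adjusted p = 0.071). Against kidney it was 0.85 ± 0.33 for 8 to 12 weeks (adjusted p = 0.273) and 1.08 ± 0.33 for 8 to 10 weeks (adjusted p = 0.216). The study had fewer mice at each age than the libraries of a pair of tissues, so some libraries of different tissues share a mouse, and the sources do not tie libraries to mice. With the replicate number as a block shared by the tissues, the first value was 1.08 with an adjusted p of 0.0503, which misses the threshold. With the counts of both strands added, it was 0.94 with an adjusted p of 0.0959, and the call was lost when 14 of the 36 libraries were left out in turn. None of the other 6 genes passed in any of the 9 such contrasts by edgeR, and none of these 6 reached an unadjusted p under 0.05. Of all genes, 0.38% passed as more positive and 0.71% as more negative in liver against heart at 10 against 8 weeks, and 0.193% and 0.578% at 12 against 10 weeks. For liver against kidney the shares were 0.167% and 0.137% at 12 against 8 weeks, 0.0304% and 0.0254% at 10 against 8 weeks, and 0.122% and 0.639% at 12 against 10 weeks. For kidney against heart they were 0.0507% and 0.0609%, 0.0507% and 0.147%, and 0.0101% and 0.00507% in the same order. The smallest adjusted p among them for liver against heart was 0.406, that of Idi1 at 10 against 8 weeks.

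Of the 53 other pathway genes, 3 passed in an age contrast. This was 1 of 49 tested in kidney at 10 against 8 weeks, where 0.646% of all genes passed as higher, and 2 of 48 tested in heart at 12 against 8 weeks, where 2.21% passed as lower, so that the share in heart lay near the background. Msmo1, a sterol demethylase, rose in kidney from 18.2 ± 1.80 CPM at 8 weeks to 26.1 ± 2.44 at 10 weeks (SD, n = 4), a log2 fold change of 0.55 ± 0.09 (edgeR, adjusted p = 0.0172), without overlap. In heart, the sterol receptor Nr1h2 fell by 0.37 ± 0.08 (adjusted p = 0.0204, from 52.2 ± 1.05 to 40.6 ± 5.11 CPM) and Scap, the escort of the SREBP precursor, fell by 0.36 ± 0.09 (adjusted p = 0.0365) between 8 and 12 weeks. In liver 0 of 53 passed at 12 against 8 weeks by edgeR, with 13 at an unadjusted p under 0.05, a level that 15.1% of all genes reached. The median of the 53 was 0.05 there, and that of the 12 enzymes after farnesyl diphosphate 0.31, with 10 of 12 above 0, beside a median of 0.00 and 49.3% above 0 for all genes.

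Lists of neighbouring functions were read beside these. Of 14 genes of fatty acid synthesis, Acaca passed in heart at 12 against 8 weeks (0.48 ± 0.12, edgeR adjusted p = 0.0391) and none passed in liver, where the median was 0.16. Of the clock genes none passed in any tissue. At 10 against 8 weeks, 8 of 16 tested in liver, 9 of 17 in kidney and 11 of 17 in heart reached an unadjusted p under 0.05, beside 14.3%, 16.5% and 15.8% of all genes. The clock activator Bmal1 was higher at 10 weeks by 1.93 ± 0.42 in liver (edgeR adjusted p = 0.118), 1.63 ± 0.42 in kidney (adjusted p = 0.0741) and 1.95 ± 0.48 in heart (adjusted p = 0.0586). At 12 against 8 weeks it was at 0.12 ± 0.43 in liver (adjusted p = 0.926), 0.28 ± 0.44 in kidney (adjusted p = 0.849) and 0.87 ± 0.50 in heart (adjusted p = 0.304). Of the genes that respond to feeding, none of 16 passed in liver (median -0.17 at 12 against 8 weeks), and in heart those that passed at 12 against 8 weeks included Pdk4 (0.79 ± 0.16) and Angptl4 (1.28 ± 0.32). The part of feeding state or hour of collection in the liver values of the 7 genes was not tested.

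The liver libraries differed widely among themselves. The 7 genes summed to 1043 to 2396 CPM in liver, with a median of 1583, to 446 to 564 in kidney and to 69.5 to 83.6 in heart. The coefficient of variation over 12 libraries was 50.8% for Hmgcs1 in liver, 9.78% in kidney and 7.27% in heart. For Fdps it was 31.5%, 12.3% and 12.5%, and for Sqle 20.8%, 17.1% and 20.7%. Counting error is small in liver, since the lowest counts there were 145 for Mvd and 1092 for Lss.

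Each gene was centred on its own mean log2 CPM in the tissue. In the 10-week liver libraries of replicates 1 and 3, all 7 genes lay above their means, by 0.30 to 1.16 and 0.03 to 0.54. In replicate 2 at 8 weeks and replicate 4 at 10 weeks all 7 lay below, by -0.17 to -1.05 and -0.16 to -0.96. At 12 weeks 6 of 7 lay above in replicates 2 and 3, and 1 of 7 in replicate 4. High and low libraries thus occurred within a single age. In kidney all 7 lay on the same side in 1 of 12 libraries and in heart in none. In the 10-week liver library of replicate 2 the genes parted, with Mvd and Insig1 at 6.53 and 223 CPM, each the lowest of 12, while Sqle was at 238, the highest.

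The 10-week liver library of replicate 1, with the highest sum (2396 CPM), had the highest share of unmapped pairs (13.0%, where the liver median was 7.23%) and the lowest sum of hepatocyte markers (87860 CPM), with Alb at 74.0% of the liver median. The libraries with the lowest sums, replicate 4 at 10 weeks, replicate 2 at 8 weeks and replicate 4 at 12 weeks (1043, 1122 and 1203 CPM), had unmapped shares of 9.32%, 5.598% and 8.25% and hepatocyte sums of 97087, 108239 and 109526 CPM. The part of both measures in these levels was not tested.

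**Figure D4:**
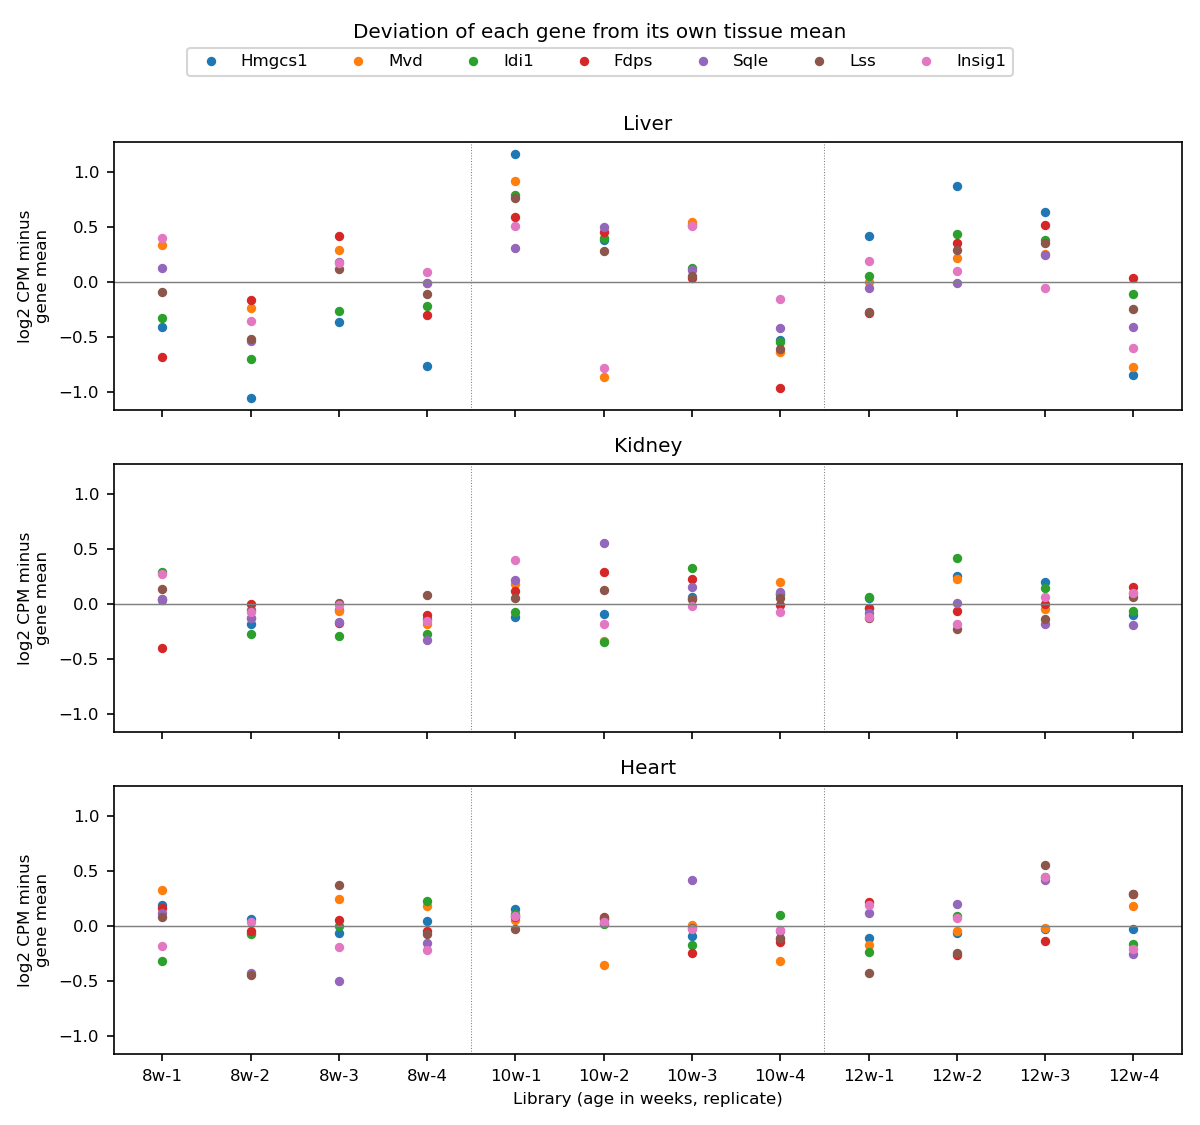
Deviation of each gene from its own mean log2 CPM in the tissue, for the 12 libraries of liver, kidney and heart (label: age in weeks and replicate). In liver the 7 genes move as a block in several libraries, such as replicates 1 and 4 at 10 weeks, and deviations in kidney and heart are smaller.

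Correlations between pairs of the 7 genes were computed over the 12 libraries of each tissue, 63 pairs in all, on log2 CPM, with a permutation test and Benjamini-Hochberg adjustment over the 63. The points share libraries and their scaling. Pairs of other genes were not tested in these libraries, so the counts of passing pairs have no background beside them. In liver 20 of 21 pairs had a positive r, with a median of 0.59 and a range of -0.06 to 0.91, and 7 passed. In kidney the median was 0.03 with 1 pair passing, and in heart 0.05 with none passing. After removal of the age means the liver median was 0.64 with 5 pairs passing by an exact permutation test within ages, the kidney median -0.05 and the heart median 0.11, with none passing in either.

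The closest pair in liver was Mvd and Insig1, with r = 0.91 (adjusted permutation p = 0.00273), Spearman's rho of 0.92 (adjusted permutation p = 0.00567) and r = 0.82 without the 2 libraries farthest from the median of Mvd. Hmgcs1 and Idi1 had r = 0.91 (adjusted permutation p = 0.00273), rho = 0.85 (adjusted permutation p = 0.0146) and r = 0.84 without 2 libraries. Idi1 and Lss had r = 0.90 (adjusted permutation p = 0.00273), rho = 0.81 (adjusted permutation p = 0.0314) and r = 0.80 without 2 libraries. Among the 5 enzymes other than Mvd all 10 pairs were positive, with r from 0.59 to 0.91. Hmgcs1 and Idi1 were also the pair that passed in kidney (r = 0.82, adjusted permutation p = 0.0156, rho = 0.76 with an adjusted permutation p of 0.0506), and it was at r = 0.77 within ages (adjusted exact permutation p = 0.0516).

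All other genes of each tissue were then ranked by their correlation with the mean of the 7 centred genes, as a description over 12 libraries. In liver the 10 most like, of 14665, were Mvk (r = 0.94), Fdft1 (0.92), Hsd17b7 (0.88), Msmo1 (0.85), Dhcr7 (0.84), Uap1l1 (0.84), Cyp51 (0.83), Lypla2 (0.83), Urod (0.82) and Mlf2 (0.82). Of these 10, 6 belong to the 53 pathway genes, namely mevalonate kinase (Mvk), squalene synthase (Fdft1) and the sterol enzymes Hsd17b7, Msmo1, Dhcr7 and Cyp51. The count was 5 after removal of age means and 4 by Spearman's rho. It was 2 without replicate 1 and 2 without replicate 4 of the 10-week livers, the libraries with the highest and lowest sums, and 5 to 7 without any other library.

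Of the 20 listed enzymes of the mevalonate and sterol branches, 11 had r above 0.5 in liver, beside 5.45% of all genes. The median r of these enzymes was 0.68, beside -0.01 for all genes. Ggps1 (r = -0.64), Pdss1 (-0.48) and Pdss2 (-0.41), which lead from farnesyl diphosphate to longer prenyl chains, had the lowest values. In kidney the most like genes were Sphk2 (0.93), Cmpk2 (0.92), Phlda2 (0.92), Lrrc25 (0.92), 2010320M18Rik (0.91), Psmd14 (0.91), Liph (0.91), Lsm6 (0.90), Pelo (0.89) and 2300009A05Rik (0.89). In heart they were Ankrd37 (0.82), Acp2 (0.81), Bdh1 (0.79), Bloc1s3 (0.78), 2310033P09Rik (0.78), Nufip1 (0.76), Atp10a (0.76), 1700025G04Rik (0.75), Pcsk4 (0.75) and Ss18l1 (0.75). None of these is on the pathway list, and the median r of the 20 enzymes was 0.09 in kidney and 0.05 in heart.

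**Figure D5:**
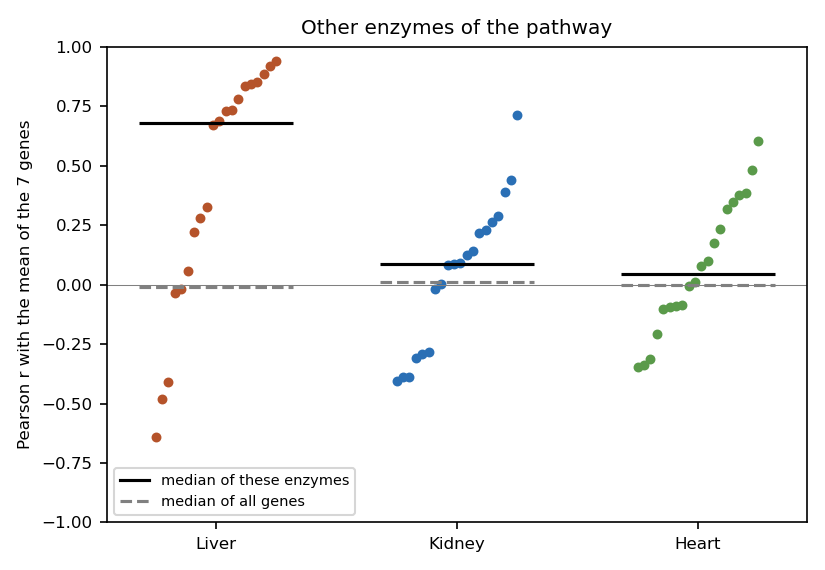
Pearson correlation of the 20 listed mevalonate and sterol branch enzymes with the mean of the 7 genes over a tissue's 12 libraries (points). Lines are the median of these enzymes and of all genes. In liver 11 of 20 points lie above 0.5, in kidney 1 and in heart 1, where 5.45%, 11.2% and 2.703% of all genes do.

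The promoters of the genes are shown as a description. Their part in the shared variation of the genes in liver was not tested. RefSeq windows (table on GRCm38.p6) were at hand for 5 of the 7 genes, Hmgcs1, Mvd, Idi1, Lss and Insig1, and not for Fdps and Sqle. The 250 bases before each RefSeq start occurred exactly 1 time on the gene's chromosome in GRCm39. They were searched on both strands, also where matches overlap, for TCACNCCAC (a form of the sterol regulatory element that SREBP binds), CCAAT (the box bound by NF-Y) and GGGCGG (the GC box bound by Sp1). The window of Hmgcs1 at chr13:120151637-120151886 (plus strand) is given whole, with matches in capitals, since it alone held all 3 motifs.

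Hmgcs1: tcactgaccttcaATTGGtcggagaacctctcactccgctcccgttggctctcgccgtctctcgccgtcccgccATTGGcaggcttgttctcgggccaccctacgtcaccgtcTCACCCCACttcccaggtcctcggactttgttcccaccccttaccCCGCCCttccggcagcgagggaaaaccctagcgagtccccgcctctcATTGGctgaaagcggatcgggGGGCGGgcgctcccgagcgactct

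The sterol element begins 137 bases before the start. CCAAT occurs 3 times on the opposite strand (read here as ATTGG), and GGGCGG occurs 1 time on each strand. For the other 4 genes, 30 bases around the CCAAT match nearest the start are given, at chr8:123170171-123170200 (Mvd, minus strand), chr13:8935612-8935641 (Idi1, plus), chr10:76367365-76367394 (Lss, plus) and chr5:28276182-28276211 (Insig1, plus), with that match in capitals.

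Mvd: ccggccagcgggCCAATcatatggcagcgc
Idi1: catggtccaaggtgccATTGGctggcgacc
Lss: ggtgatgctctgATTGGccgagctcgcatc
Insig1: cgccctcctcccATTGGctccggcggcctc

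CCAAT was found in 5 of 5 windows and in 33.8% of the 32851 promoter windows of the same length, and GGGCGG in 5 of 5 and 32.7%. TCACNCCAC was found in 1 of 5 and in 1.05% of all windows. The match in Mvd begins 27 bases before the RefSeq start, that in Idi1 14 bases, that in Lss 62 bases and that in Insig1 216 bases. This start lies inside the annotated gene by 163 bases for Mvd, 105 for Idi1, 141 for Lss and 95 for Insig1. The stretches printed for Mvd, Idi1 and Lss thus lie within the gene positions given above, and that of Insig1 lies before its gene. A match describes these letters only and is no measure of binding.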

How the data were processed

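RNA libraries of heart, kidney and liver at 8, 10 and 12 weeks (4 each) were grouped by tissue and age as labelled. Per the labels and the paper's methods, the authors ran FastQC 0.11.9, cutadapt 4.2 and STAR 2.7.11b (GRCm39, Ensembl v113). The deposited counts are whole read pairs per gene, not normalized, of which the unstranded column was analysed. Symbols and positions came from GENCODE vM39 on the same build. As in the study's filter, a gene needed a mean count of 10 or more, with 2 non-zero samples, in any age group. TMM factors and edgeR 4.0.16 quasi-likelihood tests (R 4.3.3) were fitted over all genes kept, per tissue for ages and over 36 libraries for tissues and interactions, with Benjamini-Hochberg adjustment and a threshold of 0.05. SE is the fold change over the root of F. Correlations used 100000 permutations of log2 CPM (prior count 2). Alternatives were DESeq2 1.42.0, limma-voom (limma 3.58.1), RLE factors, no factors, other filters, 2 ages only, a replicate block, both strands added, and left-out libraries. The fits were tested on simulated data.

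The 7 genes and all lists were chosen with earlier results of these data known. Named besides the 7 were pathway genes that passed, the 5 highest and 5 lowest where over 10 did, at most 4 of each other list, and the 10 genes most like the 7. Some genes this rule would name are not reported here. Where labels do not say that libraries came from separate animals, p-values measure the spread between these samples, and libraries of different tissues partly share mice. Depth was 21031599 to 33637390 counted pairs per library. Marker lists of immune cells (86.0 to 309 CPM in liver), stellate cells, fibroblasts and endothelium (199.8 to 445) and adipocytes (2.03 to 11.9) were summed as well. Copies were sought with blastn at 95% identity and 200 bases.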

Additional observations from a re-analysis of the deposited data

Results flagged for a closer look

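In groups of 4 libraries, the gap of the highest or lowest library to its neighbour, divided by the group's range, exceeded Dixon's 95% critical value in 2 of 63 groups, where chance gives about 1 in 20. Idi1 in the 8-week kidney library of replicate 1 stood at 43.3 CPM, with the others at 29.3 to 29.6. Insig1 in the 8-week heart library of replicate 2 stood at 22.1 CPM, with the others at 18.4 to 18.9. The interaction of Hmgcs1, by which the log2 change from 8 to 12 weeks was higher in liver than in heart by 1.15, is listed because the difference itself passed the test. That test gives a gene the same spread in all tissues, so its p-value may be too small for Hmgcs1.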

How the results depend on the processing

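The tissue differences of the 7 genes kept their direction and their side of the threshold under every alternative, except that Fdps between kidney and heart passed without scaling factors, without the count filter and without replicate 4 of the 10-week livers, making 7 genes in place of 6. The sizes of these differences were less stable. Over the alternatives that kept all libraries, the log2 difference between liver and kidney was 4.24 to 5.03 for Fdps and 0.72 to 1.51 for Sqle. Between liver and heart it was 6.29 to 6.57 for Sqle, and between kidney and heart 0.75 to 1.29 for Insig1. Without scaling factors the share of higher genes among all called moved from 44.6% to 19.0% for liver against kidney and from 54.7% to 70.1% for kidney against heart.

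Counts of the 7 genes passing between ages were 0 throughout as reported. In kidney at 10 against 8 weeks they were 2 with DESeq2 and 2 without the count filter, and 0 to 1 with a library left out (1 without replicate 4 at 10 weeks or replicate 1 at 8 weeks). In kidney at 12 against 10 weeks they were 1 with DESeq2 and 1 without the filter, and 0 to 1 with a library left out (1 without replicate 4 at 10 weeks). In liver they were 1 with DESeq2 and 2 without the filter at 10 against 8 weeks, and 1 without the filter at 12 against 8 weeks. In heart at 12 against 8 weeks they were 0 to 1 with a library left out. Over all genes, the number passing between 12 and 8 weeks in liver ranged from 23 to 423 over the alternatives, beside 35 as reported.

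For the interaction of liver with heart at 12 against 8 weeks, the count of 1 (Hmgcs1) became 0 with limma-voom, without scaling factors and with both strands added, and was 0 to 1 with a library left out. At 10 against 8 weeks the count of 0 became 1 with DESeq2 and 1 without the filter, and was 0 to 1 with a library left out (1 without replicate 4 of the 10-week or the 12-week livers). For liver against kidney it became 1 without the filter at 10 and at 12 against 8 weeks, and was 0 to 1 at 12 weeks with a library left out (1 without replicate 4 of the 12-week livers). The cause was not tested.

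Same-numbered libraries did not deviate together between ages of a tissue (7 of 36 pairs with a correlation over 0.1, range -0.26 to 0.17). Between tissues 20 of 36 same-numbered pairs exceeded 0.1. Some libraries of different tissues share a mouse, but differently numbered pairs were not compared, so this count cannot tell which libraries do. Each mouse was killed at a single age, so within a tissue the replicate block groups libraries of different mice across ages. With the replicate block, 1 gene passed in kidney at 10 against 8 weeks (Sqle, 0.40, edgeR adjusted p = 0.0355) and 0 for liver against heart at 12 against 8 weeks (Hmgcs1, 1.08, adjusted p = 0.0503). The block changed no other count of the 7 genes.

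The alternatives for likeness and for levels per kb were chosen after seeing the data. The number of pathway genes among the 10 most like the 7 was 2 to 7 in liver and 0 to 1 in kidney with a library left out (1 without replicate 2 at 12 weeks), and the kidney correlation count of 1 became 0 after removal of age means. Depth limits the heart values of Sqle and Lss most, with 26 and 33 read pairs in the lowest library.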
